A study of Mus musculus with 12 samples.

Results

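Fc gamma receptors are the proteins by which leukocytes bind the constant part of IgG antibodies, and the genes described here are the 4 mouse receptors Fcgr1, Fcgr3, Fcgr4 and Fcgr2b and their shared signalling chain, Fcer1g. They were chosen by name, and all 5 of 5 had 1 probe set of their own among the 19752 genes measured. The activating receptors Fcgr1, Fcgr3 and Fcgr4 bind IgG with their outer domains and signal through the Fcer1g chain, whose ITAM, a short tyrosine motif, recruits the kinase Syk and starts phagocytosis, the oxidative burst and cytokine release. Fcgr2b carries the opposing motif, an ITIM, recruits the lipid phosphatase SHIP1 (Inpp5d) and restrains the activating receptors on the same cell. In injured muscle these genes are known mainly from the monocytes and macrophages that enter to clear dead fibres, but neutrophils, dendritic cells, mast cells, B cells and NK cells each carry some of them.

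RNA of the whole tibialis anterior (TA), a shin muscle, was read on 12 microarrays, and the C57BL/6 mice were 8 weeks old. On day 0 every muscle was injured with cardiotoxin, a venom protein that kills fibres and starts regeneration, and every mouse received diphtheria toxin every other day up to dissection. The groups, with 3 arrays each, were Foxp3-DTR+ mice given amphiregulin (AREG) until day 8, Foxp3-DTR+ mice given phosphate-buffered saline (PBS) until day 8, Foxp3-DTR- mice given AREG until day 4 and Foxp3-DTR- mice given PBS until day 4. AREG, a ligand of the epidermal growth factor receptor, or its vehicle was injected into the muscle on day 0 and then into the peritoneum every other day. Foxp3-DTR places the receptor for the toxin under control of Foxp3, so that the toxin is meant to kill regulatory T (Treg) cells, the cells that express Foxp3, in Foxp3-DTR+ mice. Day and genotype changed together in this design and cannot be told apart. No uninjured muscle was analysed here.

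Values are log2 of the deposited intensity, they are listed in the order of replicates 1, 2 and 3, and they do not compare the amounts of different genes. The median intensity of the 12 arrays lay between 135.1 and 145.5, and precision is limited by having 3 arrays a group. The third day 8 AREG array stood apart. The 5 genes averaged 8.14 on it, against 9.59 and 9.06 on the other day 8 AREG arrays, and its 12 macrophage markers averaged 8.19, against 9.24 and 8.92. Its muscle markers averaged 13.23, within the 13.09 to 13.30 of the other arrays. The first day 4 AREG array had the narrowest spread of values over genes, with an interquartile range of 2.07 against 2.27 to 2.61 on the others. Foxp3 itself read 6.49 to 6.75 on all 12 arrays and did not pass the test in any comparison, so whole-muscle Foxp3 gave no check of the depletion. The labels do not say whether each array came from its own mouse, and p-values then measure the spread between these samples, which may be technical.

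The promoters of these genes differ in whether they hold 1 form of the letters bound by a myeloid factor. They are shown because 1 gene, Fcgr4, had a different pattern over the groups from the rest. PU.1 (Spi1) is the transcription factor that sets up monocyte and macrophage genes, and 1 form of the letters it binds is GAGGAA, or TTCCTC on the other strand. This form alone was searched on both strands in RefSeq windows of 300 bases around the annotated start (GRCm38.p6), and matches are in capitals. Other forms were not searched, so a window without a match may still hold letters that PU.1 binds. Fcgr1 lies on the minus strand (chr3:96293920-96294219) and held TTCCTC at -55 from the start. Fcgr4 lies on the plus strand (chr1:171018676-171018975) and held TTCCTC at -22. Fcgr2b lies on the minus strand (chr1:170976022-170976321) and held no match, nor did Fcer1g on the minus strand (chr1:171234300-171234599).
Fcgr1: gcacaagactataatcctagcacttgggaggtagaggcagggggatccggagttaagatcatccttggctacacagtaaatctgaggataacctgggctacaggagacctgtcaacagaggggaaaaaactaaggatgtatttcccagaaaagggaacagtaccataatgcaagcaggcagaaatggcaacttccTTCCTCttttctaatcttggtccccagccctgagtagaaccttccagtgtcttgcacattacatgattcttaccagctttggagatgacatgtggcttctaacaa
Fcgr4: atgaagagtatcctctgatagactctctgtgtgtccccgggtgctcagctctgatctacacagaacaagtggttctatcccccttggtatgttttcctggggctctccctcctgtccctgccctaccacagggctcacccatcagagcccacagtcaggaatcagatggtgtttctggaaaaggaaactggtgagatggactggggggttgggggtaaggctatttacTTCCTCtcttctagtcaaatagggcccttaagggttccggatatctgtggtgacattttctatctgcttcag
Fcgr2b: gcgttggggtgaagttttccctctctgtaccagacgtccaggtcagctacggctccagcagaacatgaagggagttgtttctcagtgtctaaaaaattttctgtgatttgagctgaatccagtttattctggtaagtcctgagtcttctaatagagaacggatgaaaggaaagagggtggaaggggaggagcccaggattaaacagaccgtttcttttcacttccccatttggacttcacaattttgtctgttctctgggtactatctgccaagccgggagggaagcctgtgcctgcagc
Fcgr3 has 2 annotated starts on the minus strand of chromosome 1 (chr1:171059345-171059644 and chr1:171059354-171059653), and the same TTCCTC fell at -15 from one and -6 from the other. The 40 bases around that match can be set beside those of Fcgr1 and Fcgr4.
Fcgr3: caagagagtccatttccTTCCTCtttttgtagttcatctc
Fcgr1: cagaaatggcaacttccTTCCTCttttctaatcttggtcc
Fcgr4: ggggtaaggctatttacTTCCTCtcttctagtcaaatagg
Of 32851 promoter windows, 28.3% held this form, so single matches are common. Fcgr1 and Fcgr3 held the same letters as Fcgr4, so the match did not set Fcgr4 apart. A match describes letters only, and binding was not measured.

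The first comparison asked what AREG did in the day 4 muscles, in mice whose Treg cells were not targeted. All 5 genes were lower with AREG, by 1.98- to 2.58-fold, and 4 of them passed the test. The chain Fcer1g had the largest of the 5 changes and Fcgr1 the smallest. The inhibitory Fcgr2b and the activating Fcgr3 fell by the same amount.

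Fcgr1, the high-affinity receptor that can hold single IgG molecules, had values of 7.38, 7.52 and 6.96 with AREG, against 8.13, 8.31 and 8.38 with PBS. Fcgr3, the low-affinity receptor for immune complexes, had 7.54, 8.33 and 7.87 with AREG and 9.09, 9.39 and 9.03 with PBS. Fcgr4, which in mice binds IgG2a, IgG2b and their complexes, had 6.15, 6.55 and 6.20 with AREG and 7.37, 7.50 and 7.66 with PBS. For each of the 3 activating receptors every AREG array lay below every PBS array. Fcgr2b had 8.27, 9.17 and 8.62 with AREG and 9.81, 10.28 and 9.74 with PBS. Fcer1g had 9.49, 9.52 and 9.27 with AREG and 10.58, 10.86 and 10.94 with PBS. These groups did not overlap either, and the gap was widest for Fcer1g, whose AREG values were tight.

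Fcer1g changed by -1.37 ± 0.31 (log2, SE, n = 3 per group, limma, adjusted p = 0.0338). Fcgr2b changed by -1.26 ± 0.31 (adjusted p = 0.0449) and Fcgr3 by -1.26 ± 0.28 (adjusted p = 0.0334). Fcgr1, at -0.99 ± 0.20 (adjusted p = 0.0265), also passed. Fcgr4 was measured at -1.21 ± 0.32, with an adjusted p of 0.0563, and did not pass. The 95% intervals of these changes ran from -1.41 to -0.56 for Fcgr1 and from -2.03 to -0.71 for Fcer1g, and those of the other 3 genes lay within -1.92 to -0.52. Of all genes, 2.11% passed with lower values, and 12% had AREG groups wholly below the PBS groups. Only 24 of all genes had a lower estimate than Fcer1g. The calls rested on few arrays: 0 of the 5 genes passed without the first or the third day 4 AREG array or without the second day 4 PBS array. Without the first or the third day 4 PBS array, 1 passed, Fcgr1 in one case (adjusted p = 0.0453) and Fcgr3 in the other (adjusted p = 0.049), while the estimates kept their sign in all 21 alternative settings.

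**Figure D1:**
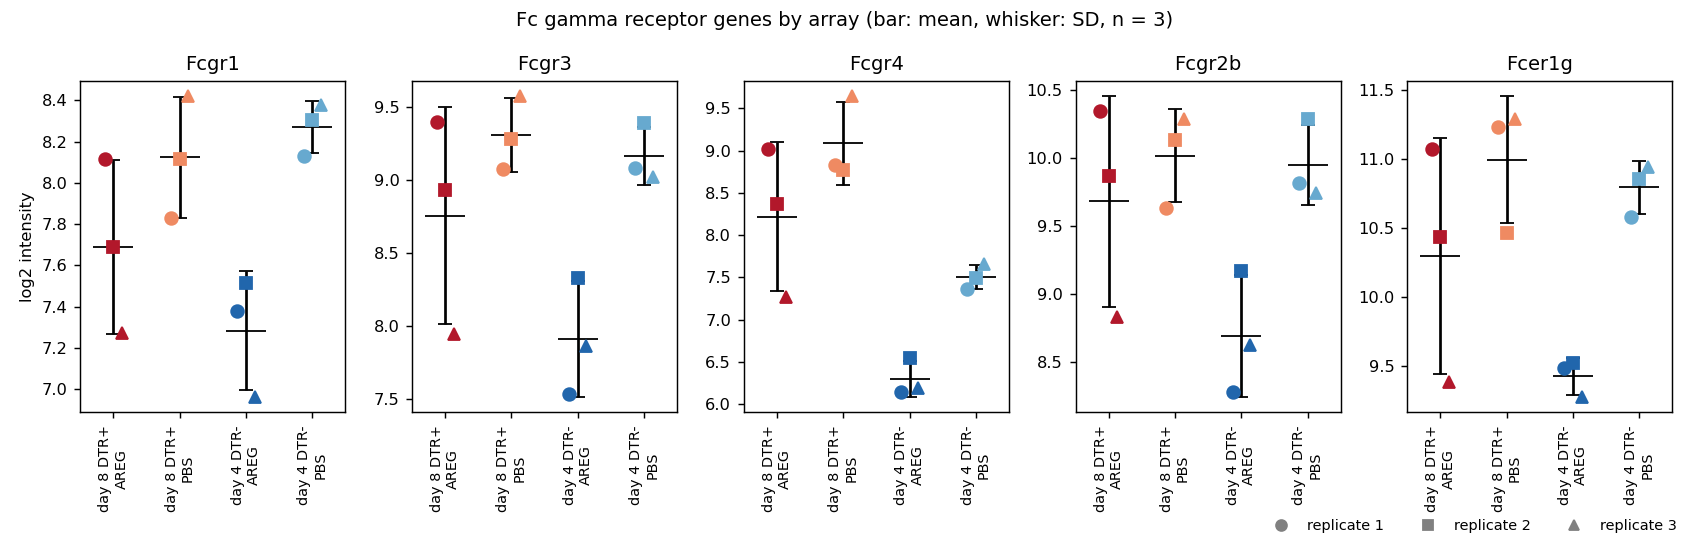
Log2 intensity of the 5 genes on each array, with 1 panel per gene, 1 point per array, a bar at the mean and a whisker for the SD (n = 3), and a scale of its own in each panel. Every day 4 AREG point lies below every day 4 PBS point in all 5 panels, while the day 8 AREG points are widely spread, and only Fcgr4 has both day 8 groups above the matching day 4 groups without overlap.

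In the day 8 muscles, where mice carried Foxp3-DTR, the 5 estimates for AREG were again below 0, between -0.87 and -0.34, but 0 of 5 passed. The day 8 AREG arrays spread so widely that no gene had groups without overlap. Fcgr4 had values of 9.01, 8.37 and 7.27 with AREG, against 8.83, 8.78 and 9.64 with PBS. Fcer1g had 11.08, 10.43 and 9.38 with AREG, against 11.23, 10.46 and 11.29 with PBS. In both genes the third AREG array lay about a log2 unit below the next. The remaining receptors also overlapped, with Fcgr1 at 7.27 to 8.11 with AREG and 7.83 to 8.42 with PBS, Fcgr3 at 7.95 to 9.40 with AREG and 9.08 to 9.58 with PBS, and Fcgr2b at 8.83 to 10.34 with AREG and 9.63 to 10.29 with PBS.

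Fcgr4 had the largest estimate of the 5, -0.87 ± 0.32 (adjusted p = 0.63, unadjusted p = 0.0167). Fcer1g was at -0.70 ± 0.31 (adjusted p = 0.647), Fcgr3 at -0.55 ± 0.28 (adjusted p = 0.686), Fcgr1 at -0.43 ± 0.20 (adjusted p = 0.652) and Fcgr2b at -0.34 ± 0.31 (adjusted p = 0.823). Over all genes, 0.00506% passed with lower values at day 8, a single gene, although 1506 genes had an unadjusted p under 0.05, and 7.14% had AREG groups wholly below PBS groups. Without the third AREG array the estimates came to -0.24 for Fcer1g, -0.22 for Fcgr1, -0.15 for Fcgr3, -0.39 for Fcgr4 and 0.09 for Fcgr2b. Without the first AREG array they came to -1.09 for Fcer1g, -0.64 for Fcgr1, -0.87 for Fcgr3, -1.26 for Fcgr4 and -0.67 for Fcgr2b. The day 8 estimates thus moved in opposite directions with these 2 arrays, and 0 of 5 passed in either case.

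Whether AREG acted differently in the day 8 and day 4 settings was tested directly. Passing at day 4 and not at day 8 is no such test. The day 8 estimate was the less negative for all 5 genes, by 0.92 ± 0.44 for Fcgr2b (adjusted p = 0.869), 0.70 ± 0.40 for Fcgr3 (adjusted p = 0.943), 0.67 ± 0.44 for Fcer1g (adjusted p = 0.973), 0.55 ± 0.29 for Fcgr1 (adjusted p = 0.894) and 0.34 ± 0.46 for Fcgr4 (adjusted p = 1.0). None of the 5 passed in limma, none had an unadjusted p under 0.05, and 0.0% of all genes passed, with 1160 at an unadjusted p under 0.05. The intervals were wide: for Fcgr4 the difference ran from -0.63 to 1.31 and for Fcgr2b from -0.02 to 1.86. With arrays weighted by their quality, 4 of the 5 differences passed, and no other setting passed any. Those weights leaned on 1 array in each AREG group, 7.43 for the second at day 8 and 5.52 for the third at day 4. The other arrays had weights of 0.167 to 2.04. Without the first day 8 AREG array the estimate for Fcgr4 was -0.06.

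**Figure D2:**
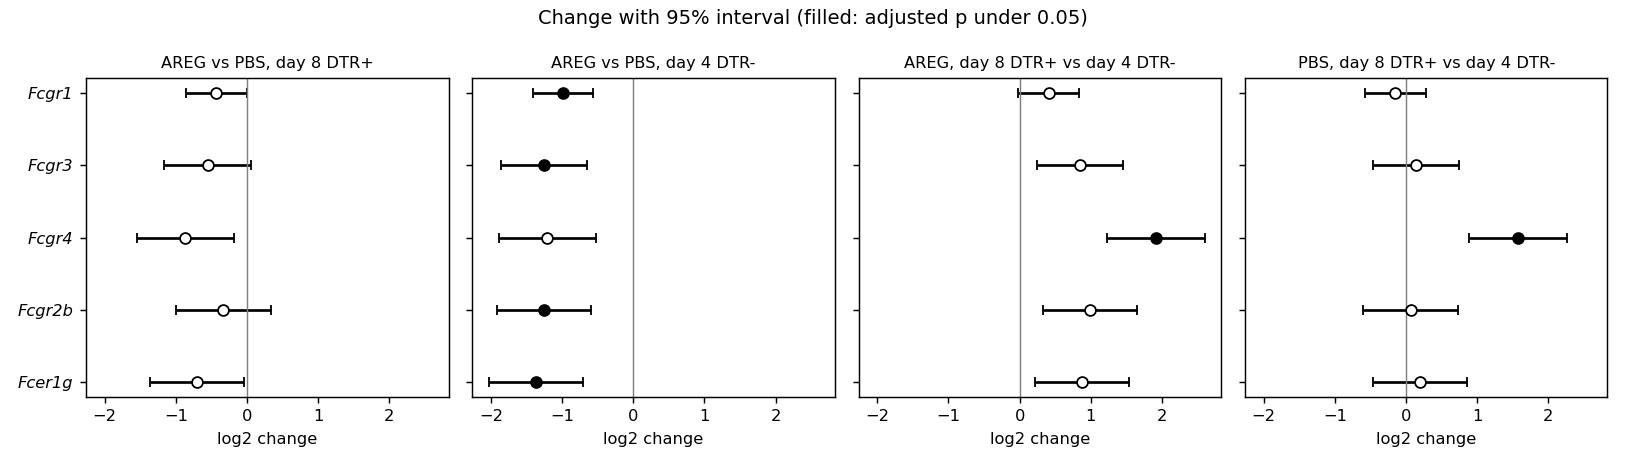
Estimated log2 change of each gene with its 95% interval, in 4 panels, first the effect of AREG over PBS for each day, then day 8 Foxp3-DTR+ against day 4 Foxp3-DTR- with AREG and with PBS, filled where the adjusted p was under 0.05. At day 4 all intervals lie below 0 and 4 points are filled, at day 8 none is filled, and between the settings Fcgr4 is the only filled point, at 1.92 with AREG and 1.58 with PBS.

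Between the settings the genes parted. In PBS muscles Fcgr4 was 2.98-fold higher at day 8 in Foxp3-DTR+ mice than at day 4 in Foxp3-DTR- mice, and the other 4 genes had estimates between -0.15 and 0.20. In AREG muscles Fcgr4 was 3.78-fold higher, and again it alone passed. Its values in PBS muscles were 8.83, 8.78 and 9.64 at day 8 and 7.37, 7.50 and 7.66 at day 4. In AREG muscles they were 9.01, 8.37 and 7.27 at day 8 and 6.15, 6.55 and 6.20 at day 4. In both treatments every day 8 array was above every day 4 array, by the smallest margin for the third day 8 AREG array.

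With PBS, Fcgr4 changed by 1.58 ± 0.32 (adjusted p = 0.0155, 95% interval 0.89 to 2.26), and 47 of all genes had a higher estimate. Fcer1g was at 0.20 ± 0.31 (adjusted p = 0.812), Fcgr3 at 0.14 ± 0.28 (adjusted p = 0.857), Fcgr2b at 0.07 ± 0.31 (adjusted p = 0.944) and Fcgr1 at -0.15 ± 0.20 (adjusted p = 0.786). These 4 genes overlapped between the groups, and their intervals, which together ran from -0.60 to 0.86, leave room for changes of either sign. With 1 of 5 genes passing, the share over all genes was 1.19% with higher values, and 9.17% had day 8 groups wholly above the day 4 groups. The call for Fcgr4 was lost without the first day 4 PBS array (adjusted p = 0.0697), the second (adjusted p = 0.0792) or the third day 8 PBS array (adjusted p = 0.0913). This comparison and the day 4 AREG comparison share the day 4 PBS arrays.

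With AREG, Fcgr4 changed by 1.92 ± 0.32 (adjusted p = 0.00847, 95% interval 1.23 to 2.60), and 23 of all genes had a higher estimate. The other estimates were also above 0, at 0.99 ± 0.31 for Fcgr2b (adjusted p = 0.226), 0.87 ± 0.31 for Fcer1g (adjusted p = 0.304), 0.85 ± 0.28 for Fcgr3 (adjusted p = 0.262) and 0.41 ± 0.20 for Fcgr1 (adjusted p = 0.519). Over all genes 0.527% passed with higher values and 4.2% had day 8 groups wholly above day 4 groups. The third day 8 AREG array decided how many passed: without it Fcer1g (adjusted p = 0.00337), Fcgr2b (adjusted p = 0.00414) and Fcgr3 (adjusted p = 0.00331) joined Fcgr4. Without the first day 4 AREG array Fcgr4 had an adjusted p of 0.0722.

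The order of the 4 groups was the same for 3 genes. For Fcgr3, Fcgr2b and Fcer1g the means, from low to high, ran day 4 AREG, day 8 AREG, day 4 PBS, day 8 PBS, and neighbouring groups overlapped throughout. Fcgr1 had the same order with the PBS groups exchanged, and its neighbours in that order overlapped too. Fcgr4 alone had day 4 PBS below day 8 AREG, at means of 8.22 ± 0.88 in day 8 AREG and 7.51 ± 0.14 in day 4 PBS (SD, n = 3 each), with values that overlapped. Its lowest group was still day 4 AREG, at 6.30 ± 0.22, which did not overlap with day 4 PBS.

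Because the activating receptors compete with Fcgr2b on the same cells, each gene was also set against Fcgr2b within an array. Such a ratio of probe intensities has no meaning as an amount, but its difference between groups shows unequal change. For AREG at day 4 no ratio had groups without overlap. Relative to Fcgr2b, Fcgr3 differed by 0.00 between AREG and PBS, Fcgr4 by 0.05, Fcer1g by -0.11 and Fcgr1 by 0.27, with exact permutation p of 0.4 or more. With 3 arrays a group these values do not show that the ratios were alike.

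Between settings the Fcgr4 ratio moved. In PBS muscles its log2 ratio to Fcgr2b was -0.80, -1.35 and -0.64 at day 8 and -2.45, -2.79 and -2.08 at day 4. In AREG muscles it was -1.33, -1.502 and -1.56 at day 8 and -2.12, -2.62 and -2.42 at day 4. The groups did not overlap in either treatment, with differences of 1.51 with PBS and 0.93 with AREG, each at a two-sided exact permutation p of 0.1. That is the smallest p that 3 against 3 arrays allow, and after adjustment over the 16 ratios tested the lowest value was 0.4, so none could pass.

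The Fcgr3 ratio stayed between -0.94 and -0.56 on all 12 arrays. It averaged -0.92 ± 0.03 in day 8 AREG and -0.70 ± 0.15 in day 8 PBS, against -0.78 ± 0.06 in day 4 AREG and -0.78 ± 0.10 in day 4 PBS (SD, n = 3 each). The day 8 AREG arrays lay below the day 8 PBS arrays and below the day 4 AREG arrays without overlap, by 0.22 and 0.14, at the same smallest exact p of 0.1. The ratios of Fcgr1 and Fcer1g overlapped in all 4 comparisons.

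**Figure D3:**
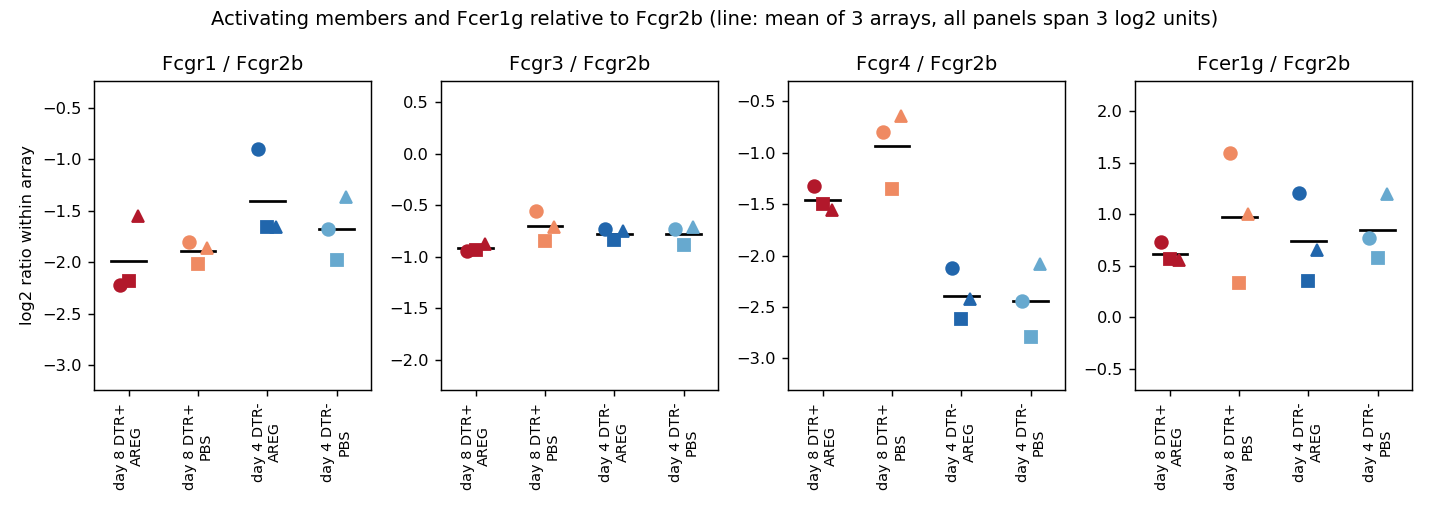
Log2 ratio of Fcgr1, Fcgr3, Fcgr4 and Fcer1g to Fcgr2b on each array, with a line at the mean of 3 arrays and the same height of scale in every panel. The Fcgr4 ratio is higher in both day 8 groups than in the matching day 4 groups, and the Fcgr3 ratio stays between -0.94 and -0.56.

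Within the groups the genes varied together from array to array. After each group's mean was removed, the correlation over the 12 arrays ran from 0.65 between Fcgr2b and Fcer1g to 0.99 between Fcgr3 and Fcgr2b. The lower values depended on 1 array: without the third day 8 AREG array, Fcgr2b and Fcer1g correlated at 0.16 and Fcgr3 and Fcer1g at 0.32, while Fcgr3 and Fcgr2b stayed at 0.97. The arrays share their labelling and normalisation, and all genes of leukocytes share the number of leukocytes in a sample. Fcgr3 and Fcgr2b are related in sequence, and whether probes of one also read the other was not tested.

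The genes most like each member over all 12 arrays were, for Fcgr3, Alox5ap, the protein that presents arachidonic acid to 5-lipoxygenase (r = 0.986), Mpeg1, a pore protein of phagocytes (0.982), and the phosphatase Ptprj (0.981). For Fcgr2b they were Ms4a6c (0.980), the adhesion protein Cd48 (0.978) and the actin nucleator subunit Actr3 (0.977). For Fcer1g they were the adaptor Lpxn (0.981), the tetraspanin Cd53 (0.971) and Pirb, an inhibitory receptor (0.967). For Fcgr1 they were the adaptor Lat2 (0.960), the G protein regulator Rgs19 (0.957) and Glipr1 (0.953). Fcgr4 had different neighbours, Casp4, an inflammatory caspase (0.990), Aoah, an enzyme that inactivates endotoxin (0.979), and H2-Aa, a chain of MHC class II (0.979). Casp4 was higher at day 8 by 1.18 with AREG and by 1.01 with PBS, and H2-Aa by 1.32 and 1.25. Both genes were picked because they followed Fcgr4 over these arrays, group differences included. Their rise between the settings thus follows largely from that choice and is no separate result. These correlations describe the same 12 arrays and carry no test.

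Markers of macrophages moved with the day 4 result. Of 12 macrophage markers, 8 were lower with AREG at day 4, among them Lgals3 (-1.59 ± 0.29, adjusted p = 0.0198), Ctss (-1.56 ± 0.38, adjusted p = 0.0429), Cd68 (-1.42 ± 0.28, adjusted p = 0.0251) and Lyz2 (-1.15 ± 0.27, adjusted p = 0.0385). Their median change was -1.10, against 0.04 over all genes, and 2.11% of all genes passed with lower values. The count of markers that passed was 0 without the first or the third day 4 AREG array or the second day 4 PBS array, as for the receptors. The summed intensity of the 12 markers was 5065 to 13270 in day 8 AREG, 11230 to 15780 in day 8 PBS, 5808 to 8160 in day 4 AREG and 13060 to 16930 in day 4 PBS. In whole muscle, fewer macrophages and less RNA per macrophage cannot be told apart.

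Set against the mean of these markers on the same array, the receptors differed less between AREG and PBS at day 4, and these values were not tested. The difference relative to the markers was 0.03 for Fcgr1, -0.19 for Fcgr4, -0.24 for Fcgr3, -0.24 for Fcgr2b and -0.35 for Fcer1g. At day 8 it lay between -0.42 for Fcgr4 and 0.11 for Fcgr2b. Between settings Fcgr4 was higher relative to the markers, by 1.80 with PBS and 1.57 with AREG. The same values for the other 4 genes were 0.07 to 0.42 with PBS and 0.06 to 0.65 with AREG. The macrophage markers themselves had medians of -0.23 with PBS and 0.27 with AREG between day 8 and day 4, with 0 of 12 passing in either.

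**Figure D4:**
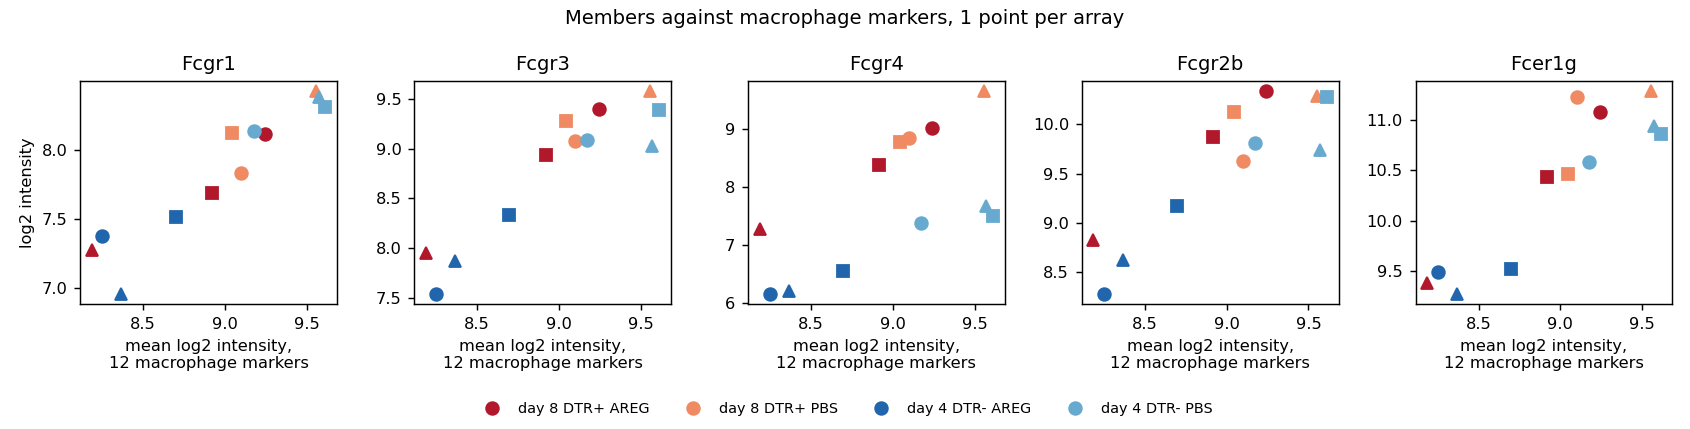
Log2 intensity of each of the 5 genes against the mean log2 intensity of 12 macrophage markers, 1 point per array, coloured by group. Over all 12 arrays r was 0.944 for Fcgr1 and 0.642 for Fcgr4, whose day 8 arrays form a band above its day 4 arrays, while with group means removed r was 0.837 for Fcgr1 and 0.952 for Fcgr4.

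Markers of other cells that carry Fc receptors were summed in the same way. NK cells, which in mice carry Fcgr3 and the Fcer1g chain, had 8 markers, and 6 of them were higher at day 8 than at day 4 with PBS, led by Nkg7, a protein of cytotoxic granules (3.23 ± 0.32, adjusted p = 3.82e-05). With AREG, Nkg7 alone passed (2.54 ± 0.32, adjusted p = 0.000722). Of all genes, 1.19% passed with higher values at day 8 with PBS and 0.527% with AREG. The summed NK markers were 695.1 to 1795 in day 8 AREG, 1507 to 2238 in day 8 PBS, 446.2 to 506.7 in day 4 AREG and 452.4 to 477.1 in day 4 PBS. Fcgr4 was also higher at day 8, but any gene that rose between the settings would share this with the NK markers. Fcgr3 and Fcer1g, which NK cells carry, were at 0.14 and 0.20 between the PBS groups. Between the AREG groups they were at 0.85 and 0.87, and neither gene passed in either comparison. At day 4 the NK sums overlapped between AREG and PBS. The part of NK cells in the receptor values was not tested.

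Of 5 monocyte markers measured, 2 were lower with AREG at day 4, F13a1 (-0.67 ± 0.12, adjusted p = 0.0198) and Chil3, and F13a1 was also lower at day 8 than at day 4 with PBS (-0.72 ± 0.12, adjusted p = 0.00448). Their summed intensity was 945.5 to 1990 in day 8 AREG, 1615 to 2146 in day 8 PBS, 1006 to 1407 in day 4 AREG and 2011 to 2402 in day 4 PBS. Neutrophil markers, 10 in number, summed to 572.3 to 629.0 in day 8 AREG, 548.7 to 644.0 in day 8 PBS, 526.8 to 635.4 in day 4 AREG and 605.9 to 626.5 in day 4 PBS, and the sole call among them was a lower Mmp8 at day 8 with PBS. Of 7 dendritic cell markers Clec9a alone was called, higher at day 8 with PBS, and the list summed to 826.8 to 1384 in day 8 AREG, 1268 to 1772 in day 8 PBS, 912.4 to 1066 in day 4 AREG and 1129 to 1200 in day 4 PBS. Of 5 Treg markers Il2ra (0.99, adjusted p = 0.000162) and Ctla4 were higher at day 8 with PBS. Foxp3, on the same list, was at -0.02 ± 0.11 (adjusted p = 0.955), and the number of Treg cells was not measured. The Treg list summed to 563.9 to 601.6 in day 8 AREG, 608.1 to 632.2 in day 8 PBS, 517.0 to 552.6 in day 4 AREG and 442.7 to 484.6 in day 4 PBS. Mast cell (8), B cell (8) and eosinophil (5) markers had 0 calls in every comparison, and so had 8 muscle markers. The mast cell list, whose cells carry Fcer1g as part of the IgE receptor, summed to 695.4 to 872.7 in day 8 AREG, 740.7 to 997.4 in day 8 PBS, 801.1 to 816.4 in day 4 AREG and 672.7 to 728.2 in day 4 PBS. Chil3, Mmp8, Clec9a and Ctla4 are named after their values were seen. Array intensities have no true 0, so absence of a cell type cannot be read from them, and the part of these cells in the results was not tested.

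Around the receptors, 7 lists covered their signalling and control, with 102 measured genes in all. At day 4, 15 of these genes were lower and 1 was higher with AREG, against 417 lower and 156 higher among all 19752 genes. At day 8 and for the difference of effects 0 of 102 passed in limma. Between day 8 and day 4, 6 passed with PBS and 4 with AREG, against 463 and 142 among all genes. Without the first or the third day 4 AREG array or the second day 4 PBS array the day 4 count was 0.

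Downstream of the ITAM, 18 of 20 listed kinases and adaptors were measured. All 18 had lower estimates with AREG at day 4, with a median of -0.43, but 1 passed. It was Lat2, an adaptor of ITAM signalling in myeloid and B cells (-0.81 ± 0.19, adjusted p = 0.0372, and 0.0535 with replicate numbers as a block). Syk, the kinase that docks on the phosphorylated chain, had 7.47 to 7.77 with AREG and 8.03 to 8.34 with PBS, a difference of -0.51 ± 0.19 (adjusted p = 0.158). Lcp2 (SLP-76), an adaptor, was the call between settings, 1.29 ± 0.26 higher at day 8 with AREG (adjusted p = 0.0312), and 0.87 ± 0.26 with PBS (adjusted p = 0.119). The call for Lcp2 was lost in 9 of 21 alternative settings.

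Enzymes and adaptors that dampen ITAM signalling, not all of them tied to Fcgr2b, were measured for 12 of 12 genes. Inpp5d, the phosphatase that Fcgr2b recruits, was lower with AREG at day 4 (-0.79 ± 0.19, adjusted p = 0.0435), with 7.80 to 8.13 in AREG muscles and 8.51 to 8.96 in PBS muscles. Ptpn6 (SHP-1), a phosphatase of ITIM receptors, was at -0.48 ± 0.18 (adjusted p = 0.154) and Dok1, an adaptor, at -0.51 ± 0.13 (adjusted p = 0.0533). The median of the list was -0.38. Ptpn22, a phosphatase that restrains Src and Syk family kinases, was higher at day 8 than day 4 with PBS (1.28 ± 0.27, adjusted p = 0.0172).

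Of 16 measured genes of phagocytosis and the oxidase, Cyba, the membrane subunit of the phagocyte oxidase, was lower with AREG at day 4 (-1.13 ± 0.24, adjusted p = 0.0297). Arpc1b, of the actin-branching complex, was also lower (-0.77 ± 0.18, adjusted p = 0.0373, and 0.0555 with the block). Gsn, an actin-severing protein that muscle and connective tissue also make, was higher (0.48 ± 0.11, adjusted p = 0.0357). The median was -0.48, and 15 of 16 estimates were lower.

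Fcer1g also serves receptors other than those for IgG, as does its relative Tyrobp (DAP12). Of 13 measured genes, 5 were lower with AREG at day 4: Clec4n (Dectin-2; -1.40 ± 0.26, adjusted p = 0.0198), Tyrobp (-1.33 ± 0.33, adjusted p = 0.0458), Trem2 (-1.15 ± 0.22, adjusted p = 0.0198), Clec5a (-1.07 ± 0.22, adjusted p = 0.0258) and Clec4d (-0.93 ± 0.23, adjusted p = 0.0458, and 0.0504 with the block). The median of the list was -0.17, with 9 of 13 estimates lower. Between the PBS groups the partners went both ways: Ncr1, an NK receptor, was higher at day 8 (1.35 ± 0.24, adjusted p = 0.00682), and Trem2, a lipid-sensing receptor of macrophages, was lower (-1.05 ± 0.22, adjusted p = 0.0162).

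Other inhibitory receptors with ITIMs, 14 measured, had a median of -0.78 with AREG at day 4. Lilrb4a (-1.18 ± 0.29, adjusted p = 0.0445), Sirpa, the receptor for the don't-eat-me signal CD47 (-1.11 ± 0.25, adjusted p = 0.0338), and Pirb (-0.92 ± 0.23, adjusted p = 0.0444, and 0.0555 with the block) were lower. Among 12 other Fc receptors, for IgE, IgM or polymeric immunoglobulin and the Fc receptor-like genes, 0 passed with AREG in limma and the median at day 4 was -0.003. The lowest estimate was that of Fcrls, a gene of macrophages and microglia in mice (-0.96 ± 0.27, adjusted p = 0.0686), and it passed with the block (adjusted p = 0.0139). Trim21, the cytosolic Fc receptor and ubiquitin ligase, was higher at day 8 than day 4 with AREG (0.93 ± 0.16, adjusted p = 0.00847) and with PBS (0.68 ± 0.16, adjusted p = 0.0304).

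The last list held factors known to set Fc receptor levels, with 18 of 19 measured. At day 4, C5ar1, the complement receptor whose signal raises the ratio of activating to inhibitory receptors on macrophages (-0.95 ± 0.18, adjusted p = 0.0224), Csf1r (-0.97 ± 0.23, adjusted p = 0.0371) and Csf2rb, the shared chain of the GM-CSF receptor (-0.86 ± 0.18, adjusted p = 0.0297), were lower with AREG. Spi1 was at -1.003 ± 0.27 (adjusted p = 0.0598) and passed with the block (adjusted p = 0.0412). Csf1r is also on the macrophage list.

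Between the settings 2 of the 18 genes passed with AREG, Irf1 and Irf8, and 2 with PBS, Irf1 and Ifng. Irf1, a transcription factor induced by interferon gamma, was higher at day 8 than day 4 by 1.88 ± 0.18 with AREG (adjusted p = 4.19e-05) and by 1.78 ± 0.18 with PBS (adjusted p = 4.99e-05), and both calls held in all 21 alternative settings. Its values were 9.28 to 9.59 in day 8 AREG and 9.24 to 10.08 in day 8 PBS, against 7.43 to 7.68 in day 4 AREG and 7.67 to 7.83 in day 4 PBS. Ifng, interferon gamma itself, was higher with PBS (0.89 ± 0.21, adjusted p = 0.0378) and was at 0.55 ± 0.21 with AREG (adjusted p = 0.352). The PBS call for Ifng held in 12 of 20 alternative settings and was lost with the replicate number over all arrays as a block (adjusted p = 0.0556). Irf8, a partner of PU.1, was higher with AREG (1.21 ± 0.23, adjusted p = 0.0162) and at 0.45 ± 0.23 with PBS (adjusted p = 0.423). Interferon gamma is known to raise Fcgr1 and Fcgr4 on macrophages, and here Fcgr4 rose between the settings while Fcgr1 did not pass. Whether these changes are linked was not tested.

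**Figure D5:**
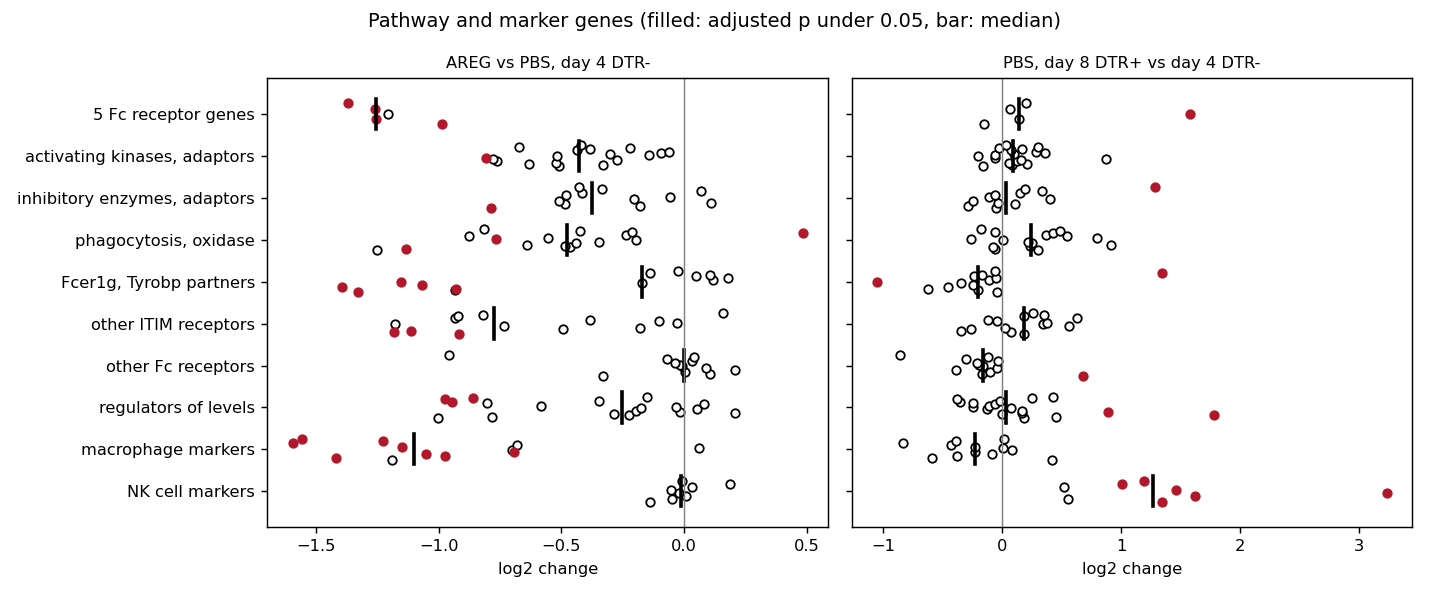
Log2 change of every measured gene of the 5 receptor genes, the 7 pathway lists and 2 marker lists, for AREG against PBS at day 4 and for PBS muscles at day 8 against day 4, filled where the adjusted p was under 0.05 and with a bar at the median. At day 4 most lists lie left of 0 with macrophage markers at -1.10, and in the PBS panel the filled points are few, with NK markers at a median of 1.27.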

How the data were processed

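RNA of whole TA muscle was hybridised to a whole-transcript Affymetrix mouse array, per the labels. Affymetrix Power Tools and RMA made the values, per the submitters' processing notes, whose versions, build and annotation the sources used here do not give. RMA subtracts background, equalises the probe values across arrays and combines the probes of a probe set, which can compress differences of dim genes. The deposited values are intensities on a linear scale for 24922 probe sets. From these deposited intensities log2 was taken here, without pseudocount or filter. Probe sets with 1 symbol in the platform's gene table were kept. Where a gene had several, the brightest on average was used, giving 19752 genes. The 5 receptor genes had 1 each.

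The main model was limma (3.58.1 under R 4.3.3), with a mean for each of the 4 groups and a spread shared by all 12 arrays (8 residual and 7.1 prior degrees of freedom). Tests were two-sided, and a gene passed, or was called, where the Benjamini-Hochberg adjusted p across the 19752 genes was under 0.05. SE are those of the fit. The fit was also run on simulated data, with noise drawn independently for each gene and array. Real arrays shared variation across genes, so that run cannot vouch for the SE or the calls here. Ratios to Fcgr2b had exact permutation tests.

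The genes, lists and tests were chosen with earlier results of these data known. Named were the 5 genes, the 3 genes with the highest correlation to each, up to 4 genes of each pathway list with the smallest p at day 4 and up to 2 in each other comparison, up to 4 marker genes with the highest mean per list, and Foxp3, Spi1, Irf8, Tyrobp, Syk, Inpp5d and Ptpn6. Some genes are in more than 1 list. Genes without a probe set of their own, such as Lyn and Fcgrt, were not analysed here. Promoter windows are those of RefSeq for GRCm38.p6.

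Replicate numbers in the titles were checked as pairs, by correlating residuals over all genes between AREG and PBS arrays that share a number. At day 4 the 3 correlations were 0.558, 0.201 and 0.511, while day 4 arrays with different numbers gave -0.486 to 0.27. The second AREG array correlated more with the third PBS array (0.27) than with the second. The labels do not say that the numbers mark pairs, so pairing is not established. A fit with the number as a block is given where it changes a call. Alternatives covered the normalisation, filter, pseudocount, array weights, fit options, the block and each array left out.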

Additional observations from a re-analysis of the deposited data

How the results depend on the processing

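Each comparison was recomputed under 21 alternatives (20 for the difference of effects, which a fit of 2 groups alone cannot give); fits without an array assume that the arrays left vary like the other groups. At day 4 the number of the 5 genes called with AREG was 4; it was 1 with trend and robust options, 1 with a pseudocount of 32, and 0 to 5 with single arrays left out. Fcgr1 was called in 17 of 21 alternatives, Fcgr3 in 15, Fcer1g in 13, Fcgr2b in 10 and Fcgr4 in 6. At day 8 the count was 0, and 1 with array quality weights. For the difference of effects it was 0, and 4 with array weights. Between PBS groups it was 1, and 0 to 1 with single arrays left out. Between AREG groups it was 1, then 5 with array weights, 0 with a pseudocount of 32 (Fcgr4 adjusted p = 0.0628), and 0 to 4 with single arrays left out. Signs turned only for values that were not called: with single arrays left out, Fcgr2b ran from -0.668 to 0.088 for AREG at day 8 and from -0.065 to 0.261 between PBS groups (-0.09 with array weights), and Fcgr4 from -0.057 to 0.814 for the difference of effects. The difference between AREG and PBS in the log2 ratio of Fcgr3 to Fcgr2b at day 4 was 0.001, and -0.008 after repeated quantile normalisation. The causes were not tested.

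With same-numbered arrays of each setting as a block the day 4 count stayed at 4 (Fcgr4 adjusted p = 0.0808). That of the 102 pathway genes was 14 against 16 (4 calls lost, those of Lat2, Arpc1b, Clec4d and Pirb, and 2 gained, Fcrls and Spi1). No call of the 5 genes changed with a block in any comparison. The day 8 correlations between same-numbered arrays were -0.198, 0.123 and -0.003, which gave no sign of pairs, though this fit blocked those numbers too. Between the settings the block was the replicate number over all arrays, which ties day 4 to day 8 arrays and does not stand for known pairs. Between PBS groups that block lost Ifng (adjusted p = 0.0556) and gained Fcrls (adjusted p = 0.0409). The counts that follow for gene lists were recomputed after the data were seen. Of the 102 pathway genes, 16 were called at day 4, 37 in a fit of the day 4 arrays alone, 62 with array weights, 6 with a pseudocount of 32 and 0 to 37 with single arrays left out. Between PBS groups 6 were called, 10 in a fit of those arrays alone, 13 with array weights, 4 with genes above the median level and 2 to 11 with single arrays left out. Between AREG groups 4 were called, 66 with array weights, 2 with a pseudocount of 32 and 2 to 27 with single arrays left out. At day 8 and for the difference of effects 0 were called, against 7 and 22 with array weights. The 8 macrophage markers called at day 4 were 3 to 11 under the other settings and 0 to 10 with single arrays left out.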
